A study of Mus musculus with 30 samples.

Results

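The 10 genes described here are nuclear copies of genes that the mitochondrial genome encodes. They are Gm29216, Gm28661, Gm10925, Gm28437, Gm28438, Gm10222, Gm28439, Gm13339, Gm13340 and Gm13341, chosen by name, and all 10 were found among the 41128 genes of the aorta counts and of the kidney counts. The 37 genes of the mitochondrial chromosome are listed in both count tables, but each of them stood at 0 in every library, as did every gene on chromosomes 9, X and Y, so that all shares refer to totals without these chromosomes. The copies were therefore followed as a place where reads with a mitochondrial sequence could be counted, and their share of each library was compared between groups within a tissue. Which reads gave the counts of each copy was not tested.

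Mitochondria keep a small genome whose protein-coding genes all specify subunits of the respiratory chain or of the ATP synthase, and all the other subunits come from nuclear genes. Over evolution, stretches of mitochondrial DNA have been inserted into the chromosomes of the nucleus and are annotated there as pseudogenes. A young insertion still has nearly the sequence of its source. A short read from mitochondrial RNA can then be aligned to the copy as well as to the mitochondrial chromosome, and mitochondrial transcripts are among the most abundant RNAs of oxidative tissues such as the kidney tubule and brown fat.

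RNA of single male mice was sequenced from 14 aortae and 16 kidneys. WT mice carried a tamoxifen-inducible Cre recombinase driven by the smooth muscle promoter Smmhc (the Myh11 gene) but no loxP sites, and KO mice carried the same Cre together with a floxed Egfr, so that the EGF receptor was deleted in smooth muscle cells. All mice are labelled C57Bl6J, although the Cre line crossed in is given as C57BL/6N, and received tamoxifen, 1 mg per day for 5 days; a standard (SFD) or high (HFD) fat diet began 7 days later, at 6 weeks of age, and lasted 18 weeks. The question of the study was whether the smooth muscle EGF receptor takes part in the vascular and renal effects of HFD. In the aorta there were 3 WT-SFD, 4 WT-HFD, 3 KO-SFD and 4 KO-HFD libraries, and in the kidney 4 of each group. The mice are named below by group and the number in their labels. Mice WT-SFD-1309, KO-SFD-1319 and KO-HFD-1504 gave a library of both tissues. The total count was 6403699 to 13052870 per aorta (median 8998366) and 16354880 to 28331314 per kidney (median 19544128). The tissues were sequenced at different sites, so values of aorta and kidney are set side by side without a test and a difference between them cannot be told apart from one between the sites.

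The labels were checked against marker genes, given in FPM (the count scaled to the library size with TMM factors, as edgeR's CPM). Egfr, the deleted gene, stood at 46.7, 39.5 and 54.3 FPM in WT-SFD against 26.8, 35.5 and 28.0 FPM in KO-SFD aortae. The HFD values were 65.1, 57.0, 51.2 and 57.0 FPM for WT against 27.5, 40.6, 39.7 and 33.4 FPM for KO aortae, so that on either diet each KO aorta lay below each WT aorta. In the kidney, where smooth muscle is a small part of the tissue, the 8 KO kidneys (40.5 to 60.8 FPM) overlapped with the 8 WT kidneys (36.9 to 58.4 FPM). The smooth muscle genes Acta2 and Myh11 had 4235 to 8745 and 4015 to 7283 FPM in the aortae, and the proximal tubule genes Kap and Slc34a1 had 7973 to 25027 and 5895 to 10805 FPM in the kidneys.

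The positions and sequences of the copies are given on GRCm38 from the GENCODE vM21 annotation and its transcripts, the mouse build to which the authors aligned. The copies come from 2 insertions, both read on the minus strand and annotated as unprocessed pseudogenes. The chromosome 1 insertion, chr1:24611535-24616197, holds 7 members in 4663 bases between the genes Col19a1 and Lmbrd1, in the same order as their sources in the mitochondrial genome. The chromosome 2 insertion, chr2:22587291-22590533, holds 3 members in 3243 bases, inside an intron of Myo3a, a gene read on the opposite strand. Whether the counting used strand is not stated, so reads of Myo3a there cannot be told apart from reads of the copies.

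Cytochrome c oxidase (complex IV), which passes electrons to oxygen, has 3 mitochondrially encoded subunits, and 5 members are copies of these. Gm29216 (ENSMUSG00000101249, chr1:24615706-24616197, 492 bases) holds the 3′ part of mt-Co1, the catalytic subunit, and Gm13340 (ENSMUSG00000083563, chr2:22588103-22589647, 1545 bases) the whole of it. Gm28661 (ENSMUSG00000102070, chr1:24614885-24615565, 681 bases) and Gm13341 (ENSMUSG00000083863, chr2:22587291-22587962, 672 bases) are copies of mt-Co2, which takes up the electrons from cytochrome c. Gm28437 (ENSMUSG00000101111, chr1:24613189-24613971, 783 bases) is a copy of mt-Co3. The following stretches show how close the copies of mt-Co1 and mt-Co2 are to their source, with capitals at the bases that differ from the mitochondrial gene.

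mt-Co2: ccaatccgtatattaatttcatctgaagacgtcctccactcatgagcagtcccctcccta
Gm28661: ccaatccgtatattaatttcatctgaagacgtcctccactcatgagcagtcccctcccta
Gm13341: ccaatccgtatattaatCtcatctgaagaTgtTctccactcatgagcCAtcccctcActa
mt-Co1: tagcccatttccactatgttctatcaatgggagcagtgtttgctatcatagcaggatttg
Gm29216: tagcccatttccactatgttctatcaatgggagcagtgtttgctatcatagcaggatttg
Gm13340: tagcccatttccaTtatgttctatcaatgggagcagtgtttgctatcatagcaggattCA

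The mt-Co2 stretch starts at base 445 of the gene and lies at chr1:24615062-24615121 in Gm28661, with 0 differences, and at chr2:22587471-22587530 in Gm13341, with 6. The mt-Co1 stretch starts at base 1121 and lies at chr1:24616071-24616130 in Gm29216, with 0 differences, and at chr2:22588468-22588527 in Gm13340, with 3, which are C1134T, T1179C and G1180A, counted from 1 at the start of mt-Co1 with the mitochondrial base first.

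NADH dehydrogenase (complex I), the entry point for electrons from NADH, is represented by 4 members, all copies of membrane subunits. Gm13339 (ENSMUSG00000082884, chr2:22590024-22590533, 510 bases) holds part of mt-Nd2 and Gm28438 (ENSMUSG00000101939, chr1:24612775-24613119, 345 bases) holds mt-Nd3. Gm10222 (ENSMUSG00000067736, chr1:24612407-24612700, 294 bases) holds mt-Nd4l and Gm28439 (ENSMUSG00000100131, chr1:24611535-24612410, 876 bases) the 5′ part of mt-Nd4, and these neighbours overlap by a few bases, as their sources do in the mitochondrial genome. The ATP synthase (complex V) is represented by Gm10925 (ENSMUSG00000100862, chr1:24613974-24614651, 678 bases), a copy of mt-Atp6, the subunit of the proton channel. Of the 13 mitochondrial protein-coding genes, 8 have a member, and mt-Nd1, mt-Atp8, mt-Nd5, mt-Nd6 and mt-Cytb have none.

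The chromosome 1 members were nearly identical with their source. Gm28661, Gm10925, Gm28437, Gm10222 and Gm28439 matched it over their whole length at 100%. The other members of this insertion each differed at 1 base of the part that matched, Gm29216 by A1066T (99.8% identity) and Gm28438 by T3C (99.7%), shown here with the differing base in capitals, for Gm29216 at chr1:24616159-24616188 and for Gm28438 at chr1:24613090-24613119.

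mt-Co1 beside Gm29216: ggaattgttttatccaactcatcccttgac
Gm29216 single difference: ggaTttgttttatccaactcatcccttgac
mt-Nd3 beside Gm28438: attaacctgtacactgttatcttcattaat
Gm28438 single difference: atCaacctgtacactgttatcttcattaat

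The members on chromosome 2 were less close, with 97.6% identity for Gm13340 (37 mismatches), 96.7% for Gm13339 (17 mismatches) and 95.9% for Gm13341 (16 mismatches and 1 gap over 684 aligned positions). Reads of the study were 100 bases long. Every window of 100 bases in 5 members, 380 of 393 windows of Gm29216 and 243 of 246 windows of Gm28438 also occurred letter for letter in a mitochondrial transcript, so a read of such a window cannot be told apart from a mitochondrial one. This held for 5.53% of the windows of Gm13340, 7.30% of those of Gm13339 and 15.4% of those of Gm13341. In all, 61 annotated genes outside the mitochondrial chromosome matched it, and 36 of them were in the count tables, 33 of these on chromosomes with counts. None of the 26 that are not members had such a window, and the members held 98.2% of all counts on matching genes in the aortae, and 99.97% of them in the kidneys.

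In the aorta the 10 copies together took 1.86% to 8.88% of all counts of a library. The share was 8.88% in mouse WT-SFD-1309, 7.55% in WT-SFD-1310 and 2.09% in WT-SFD-1445, and 2.36%, 2.29%, 2.43% and 1.86% in WT-HFD-1442, WT-HFD-1443, WT-HFD-1447 and WT-HFD-1448. It was 8.19% in mouse KO-SFD-1319, 5.31% in KO-SFD-1452 and 3.43% in KO-SFD-1507, and 3.03%, 2.37%, 2.91% and 1.98% in KO-HFD-1454, KO-HFD-1503, KO-HFD-1504 and KO-HFD-1505. The high values were thus those of 4 SFD aortae, both genotypes among them. The KO groups did not overlap between the diets, whereas WT-SFD-1445 lay within the range of the WT-HFD mice. On the summed TMM-scaled level the KO groups did overlap, with 30372 FPM in KO-HFD-1504 above 27688 FPM in KO-SFD-1507. Counting error was small against this spread: the exact (Clopper-Pearson) 95% interval was 8.86% to 8.90% in mouse WT-SFD-1309 and 2.08% to 2.10% in mouse WT-SFD-1445, and covers counting error only.

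**Figure D1:**
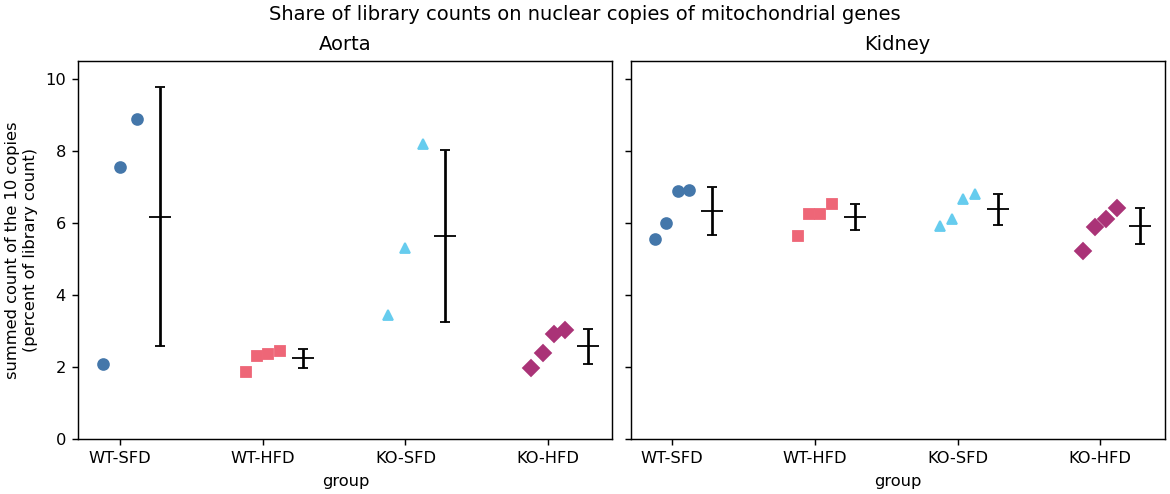
Summed count of the 10 copies as percent of the library count (y axis) in each group (x axis), with 1 point per library and bars for the mean ± SD, aorta on the left and kidney on the right. In the aorta 4 of the 6 SFD libraries lie between 5.31% and 8.88% and every HFD library lies at or below 3.03%, while all kidneys lie between 5.23% and 6.92%.

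The mean share was 6.17% ± 3.60 (SD, n = 3) in WT-SFD and 2.24% ± 0.260 (n = 4) in WT-HFD aortae, a ratio of HFD to SFD of 0.362. In KO aortae it was 5.64% ± 2.40 (n = 3) and 2.57% ± 0.489 (n = 4), a ratio of 0.456. Between the genotypes the ratio of KO to WT was 0.914 on SFD and 1.15 on HFD, with overlapping groups in both. No test was run on the summed share, since the members were chosen with results of these data known. In the bulk tissue, fewer cells of a type and less RNA per cell cannot be told apart. Small and structural RNA genes, whose share differed among the aortae from 18.4% to 43.1% and was 31.2%, 28.4%, 29.6% and 20.8% in mice WT-SFD-1309, WT-SFD-1310, KO-SFD-1319 and KO-SFD-1452, also enter the total count.

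Per length, Gm29216 had the highest level in the aorta, with a median of 6819 FPM per kb over the 14 libraries (range 5440 to 28762). Gm10925 followed with 5689, Gm28661 with 5140, Gm13340 with 4528, Gm28439 with 4084, Gm28437 with 2812, Gm10222 with 2562, Gm13339 with 1390, Gm28438 with 1093 and Gm13341 with 120 FPM per kb. The order held from library to library for most neighbours: Gm10925 lay above Gm28661 and Gm28661 above Gm13340 in 14 of 14 libraries. Gm13340 and Gm28439 were not separated, with Gm13340 higher in 9 of 14 libraries, and Gm28437 lay above Gm10222 in 11 of 14. As a share of the counts on all members, Gm13340, the longest copy, took the most, 24.1% to 29.5%.

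**Figure D2:**
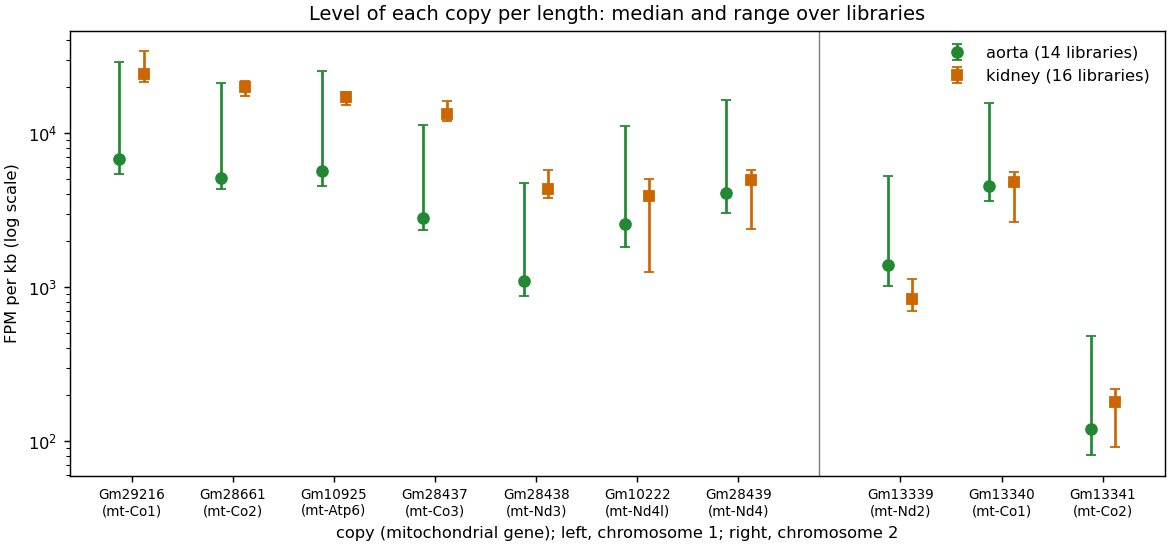
Level of each copy in FPM per kb (y axis, log scale), with the median (symbol) and the range (bar) over 14 aortae and 16 kidneys, chromosome 1 members on the left and chromosome 2 members on the right of the line. The copies of mt-Co1, mt-Co2, mt-Atp6 and mt-Co3 on chromosome 1 have the highest levels in the kidney, and Gm13341 has the lowest level in both tissues, 120 and 178 FPM per kb.

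Gm28437, the mt-Co3 copy, had 8810, 6543 and 2190 FPM in WT-SFD-1309, WT-SFD-1310 and WT-SFD-1445, and 1939, 1836, 2097 and 2048 FPM in the WT-HFD mice. In KO mice it had 6478, 3824 and 2221 FPM on SFD and 2111, 2214, 2698 and 2015 FPM on HFD. Gm28437 was the only member of which every WT-HFD aorta lay below every WT-SFD aorta, mouse WT-SFD-1445 being just above the highest WT-HFD value; groups were apart in this direction for 4.53% of all genes tested. Gm29216, with the mt-Co1 sequence, had 14151, 10356 and 3140 FPM in WT-SFD and 2876, 2676, 3350 and 2838 FPM in WT-HFD aortae. It had 11049, 6221 and 3550 FPM in KO-SFD and 3360, 3169, 3762 and 2786 FPM in KO-HFD aortae, and both pairs of diet groups overlapped, in WT through mouse WT-SFD-1445 and in KO through mouse KO-SFD-1507.

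Gm28661, the mt-Co2 copy on chromosome 1, had a mean of 9663 ± 5911 FPM (SD, n = 3) in WT-SFD, 3187 ± 178 (n = 4) in WT-HFD, 7680 ± 4245 (n = 3) in KO-SFD and 3558 ± 610 (n = 4) in KO-HFD aortae. Gm13341, the other mt-Co2 copy, had 322, 232 and 68.6 FPM in WT-SFD and 68.7, 54.3, 64.2 and 64.2 FPM in WT-HFD aortae. In KO aortae it had 232, 128 and 84.4 FPM on SFD and 75.7, 81.0, 128 and 79.6 FPM on HFD. Every KO-HFD value of Gm13341 lay above every WT-HFD value, which was so for 2.15% of all genes tested, and it was the only member with this order.

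The members with complex I and ATP synthase sequence had the same high libraries. Gm28439 (mt-Nd4) had 14284, 11498 and 2864 FPM in WT-SFD and 3349, 3329, 3530 and 2645 FPM in WT-HFD aortae. Gm10925 (mt-Atp6) had 17163, 12918 and 3201 FPM in WT-SFD and 3556, 3359, 3758 and 3065 FPM in WT-HFD aortae. In both, WT-SFD-1309 and its group mate WT-SFD-1310 stood far above all WT-HFD mice and mouse WT-SFD-1445 stood within their range. Gm10222, Gm28438 and Gm13339 had WT-SFD means of 2109.5 ± 1295, 1074 ± 658 and 1869 ± 1015 FPM (SD, n = 3) and WT-HFD means of 669 ± 100.0, 325 ± 26.8 and 672 ± 55.9 FPM (n = 4).

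Each member was tested with edgeR's quasi-likelihood test in a fit of all 4 aorta groups, with p-values adjusted over the 14796 genes tested. For HFD against SFD in WT mice, 0 of 10 members had an adjusted p under 0.05, as had 0 of all genes (0%). The log2 fold changes ran from -1.72 (Gm28438 and Gm13341) to -1.48 (Gm13339 and Gm13340), with a median of -1.63 against -0.01 over all genes, SEs of 0.37 to 0.44 and adjusted p-values of 0.0780 to 0.0867. At an unadjusted p under 0.05, 10 of 10 members were lower, against 11.1% of all genes, and DESeq2 called 10 of 10 lower at an adjusted p under 0.05, against 3.86% of all genes. The members rose and fell together over the 14 aortae, with Pearson's r of 0.926 to 0.998 between their log2 levels (median 0.985). Counts of members in the aorta are therefore not counts of independent results. With library totals in place of TMM edgeR called 5 members lower, against 1.45% of all genes, and without the low count filter 10, against 1.88%. The edgeR calls also depended on mouse WT-SFD-1445: without it 10 of 10 members were called lower, against 8.52% of all genes, with a median log2 fold change of -2.04, without WT-SFD-1309 the median was -1.19, and without mice WT-SFD-1309, WT-SFD-1310 and KO-SFD-1319 it was -0.09 and 0 were called. These 3 mice were picked after seeing the data as the aortae with the highest adipocyte marker means, and they also had the highest shares. Without them 1 WT-SFD library remains, so the smaller difference follows from the choice and no test of the diet effect is read from it. Leaving out WT-SFD-1445 kept only WT-SFD-1309 and WT-SFD-1310, both among these 3 mice, as the WT-SFD group. The larger difference there follows from the choice as well.

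For HFD against SFD in KO mice, 0 of 10 members had an edgeR adjusted p under 0.05 (0% of all genes), and DESeq2 called 0, against 8 of all 14796 genes. All 10 log2 fold changes were below 0, from -1.22 in Gm28439 to -0.70 in Gm13341 with a median of -1.10, SEs of 0.37 to 0.44 and edgeR adjusted p-values of 0.556 to 0.706. At an unadjusted p under 0.05, 9 members were lower in the edgeR fit, against 4.85% of all genes, and Gm13341, with an edgeR adjusted p of 0.706, was the exception. Leaving out mouse KO-SFD-1319 brought the median to -0.59. The diet comparisons of WT and KO share no libraries, and in the test of their difference 0 members had an edgeR adjusted p under 0.05 (0% of all genes), 0 an unadjusted p under 0.05 and DESeq2 called 0. Over all 14796 genes, 606 had an unadjusted p under 0.05 in this test and DESeq2 called 2. The difference of the log2 fold changes, KO minus WT, was 0.35 to 1.03 (median 0.53) with SEs of 0.52 to 0.62. Its median was 0.10 without WT-SFD-1309, 0.96 without WT-SFD-1445, 1.05 without KO-SFD-1319 and -0.50 without the 3 mice with the highest shares.

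KO against WT gave 0 members with an edgeR adjusted p under 0.05 on SFD (0.0811% of all genes) and 0 on HFD (0.0811% of all genes), with 0 at an unadjusted p under 0.05 and 0 called by DESeq2 on either diet. Over all 14796 genes, 908 on SFD and 746 on HFD had an unadjusted p under 0.05, and DESeq2 called 21 and 40. On SFD the 10 log2 fold changes ran from -0.55 to -0.20 (median -0.41, SEs 0.40 to 0.47). On HFD they ran from -0.13 in Gm13339 to 0.54 in Gm13341 (median 0.17, SEs 0.34 to 0.41). The HFD median was 0.07 without KO-HFD-1504, with a highest value of 0.33, and 0.47 with the mean of the adipocyte markers as a covariate, with 10 of 10 above 0 and a lowest edgeR adjusted p of 0.0547. Leaving out 1 library moved the SFD median both ways, to 0.01 without WT-SFD-1309 (5 of 10 below 0), to -0.81 without WT-SFD-1445 and to -0.91 without KO-SFD-1319 (10 of 10 below 0 in both). Without the 3 mice with the highest shares it was 0.65, with 0 of 10 below 0. With the mean of the adipocyte markers as a covariate the SFD median was -0.04 (6 of 10 below 0), and with library totals -0.18 (9 of 10 below 0).

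**Figure D3:**
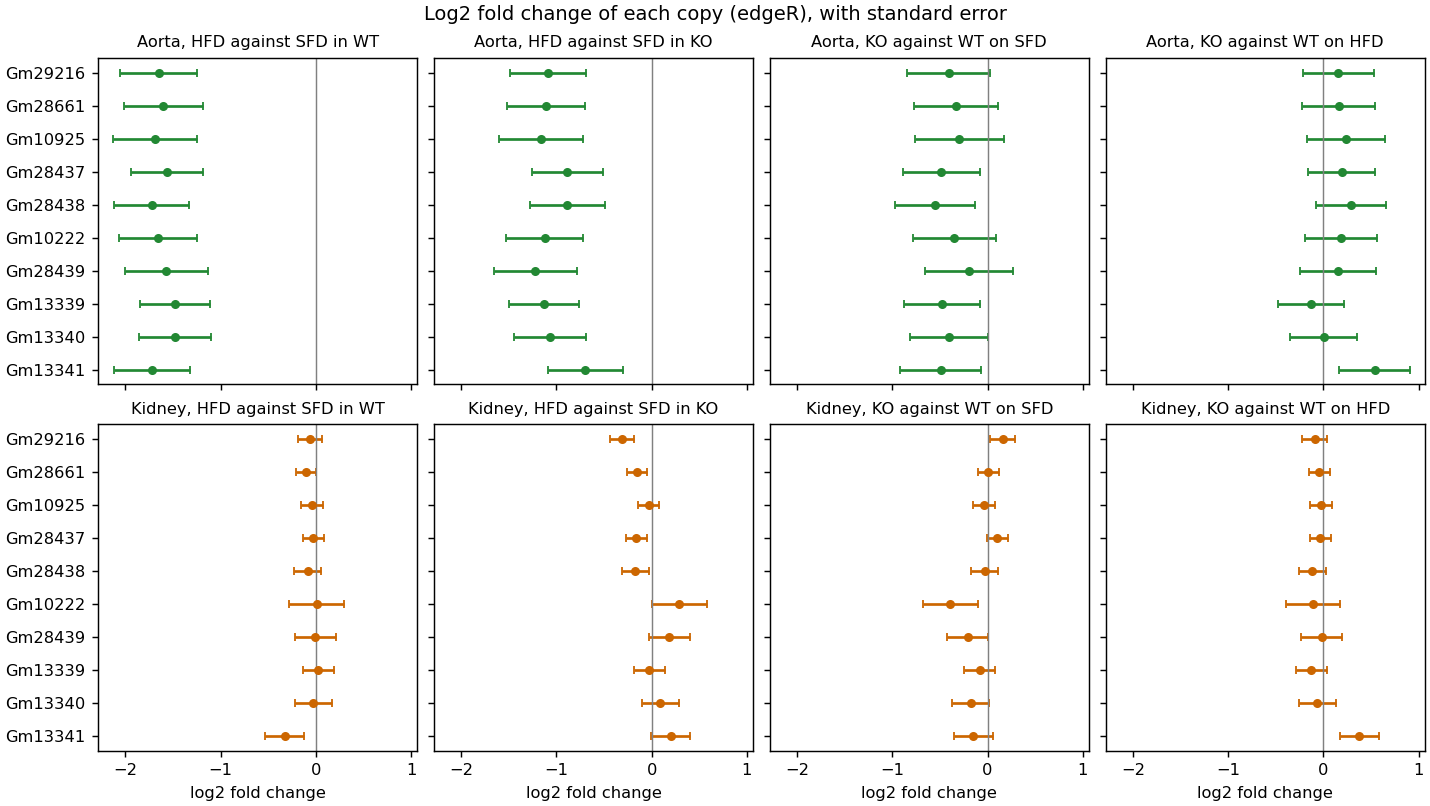
Log2 fold change of each copy in the edgeR fits (x axis), with bars of 1 SE, for the 4 comparisons in the aorta (top) and the kidney (bottom). The aorta values for HFD against SFD lie between -1.72 and -1.48 in WT and between -1.22 and -0.70 in KO, and the kidney values lie between -0.39 and 0.38.

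Markers of fat cells moved with the copies in the aorta. The aortae had been freed of the surrounding fat, and the whole list of 10 adipocyte markers was followed. Its summed level was 5126, 4190 and 225 FPM for WT-SFD-1309, WT-SFD-1310 and WT-SFD-1445 against 3327, 1077 and 212 FPM for the KO-SFD mice in the order given above. On HFD the sum stood at 233, 223, 362 and 286 FPM (WT) against 155, 270, 209 and 141 FPM (KO), so the 4 aortae with the highest share of mitochondrial copies were also the 4 with the highest adipocyte sum. Lpl, the lipase that releases fatty acids from lipoproteins, had the highest mean of these markers, with up to 1512 FPM, and Fabp4, the fatty acid binding protein of adipocytes, reached 1290 FPM. Ucp1, the uncoupling protein of brown fat, had 580, 256, 194 and 73.3 FPM in mice WT-SFD-1309, WT-SFD-1310, KO-SFD-1319 and KO-SFD-1452 and 0.544 to 27.5 FPM in the other aortae. Prdm16, a transcription factor of brown fat and the most abundant gene of the brown adipocyte list on average, went the other way, with 118, 130, 108 and 150 FPM in these 4 mice and 127 to 204 FPM in the others. Its log2 fold change for HFD against SFD was 0.56 ± 0.13 (SE) in WT and 0.36 ± 0.13 in KO, with edgeR adjusted p-values of 0.0780 and 0.595. Of the adipocyte list 1 gene stood at 0 in mouse WT-HFD-1442 and 0 genes in the other aortae.

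**Figure D4:**
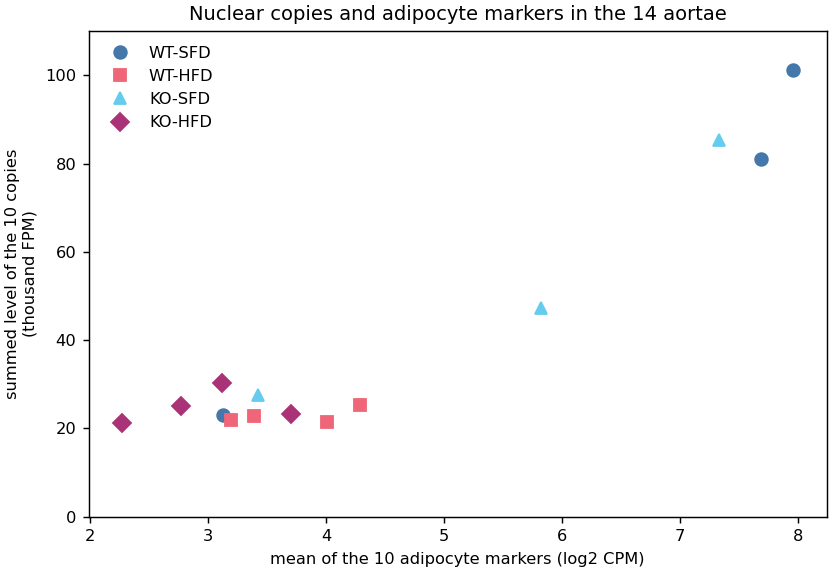
Summed level of the 10 copies in FPM (y axis, scaled as labelled) against the mean log2 CPM of the 10 adipocyte markers (x axis), 1 point per aorta. Mice WT-SFD-1309, WT-SFD-1310, KO-SFD-1319 and KO-SFD-1452 lie at the upper right, with adipocyte means of 7.96, 7.69, 7.33 and 5.82, and the other 10 aortae at means of 2.27 to 4.29.

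Markers of other cell types also differed between the aortae. Those of smooth muscle and blood were lowest in the aortae with the highest shares of the copies. Pearson's r with the summed copies (log2, 14 aortae) was -0.895 for smooth muscle, -0.864 for blood and -0.876 for podocyte markers. It was 0.739 for skeletal muscle, 0.291 for cardiac muscle, -0.105 for proximal tubule and 0.439 for distal nephron markers. The summed smooth muscle markers were 9791, 12089 and 10522 FPM in mice WT-SFD-1309, WT-SFD-1310 and KO-SFD-1319 and 14598 to 17666 FPM in the other aortae. The summed blood markers, among them the haemoglobin genes Hbb-bt and Hba-a1, were 27.3, 13.1 and 20.6 FPM in the same mice and 166 to 804 FPM in the others. The cardiac muscle gene Myh6 had 248 FPM in mouse WT-SFD-1310, 34.5 FPM in mouse KO-SFD-1452 and 0.402 to 11.1 FPM in the other aortae. With the mean of the adipocyte markers as a covariate, the median log2 fold change of the members for HFD against SFD was -0.37 in WT, with 10 of 10 below 0, and 0.09 in KO, with 1 of 10 below 0. That mean was at most 4.29 in HFD aortae and up to 7.96 in SFD aortae. The summed adipocyte markers had a Pearson's r of 0.968 with the summed copies (log2). Diet and fat markers thus cannot be told apart in this fit, and no cause is read from it. The part of other cell types in the share of the copies was not tested.

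The nuclear genes that work with the mitochondrial genome were followed by lists. Of the nuclear respiratory chain partners, subunits of the complexes that the mitochondrial genes also serve, 22 of 26 listed genes were tested, and 0 had an edgeR adjusted p under 0.05 for HFD against SFD in WT aortae. All 22 had a log2 fold change below 0, with a median of -1.06 against -0.01 over all genes. Of them 21 had an unadjusted p under 0.05, against 11.1% of all genes lower, and DESeq2 called 14, against 3.86% lower. In KO aortae all 22 were again below 0 with a median of -0.67, 11 at an unadjusted p under 0.05, against 4.85% of all genes lower. There edgeR and DESeq2 called 0 of the list, against 0 and 8 of all genes. Atp5b, the catalytic subunit of the ATP synthase, had 529 ± 309 FPM (SD, n = 3) in WT-SFD and 193 ± 10.4 (n = 4) in WT-HFD aortae, and Atp5a1, its partner in the same head, had 385 ± 194 and 189 ± 13.5 FPM. Their log2 fold changes were -1.46 ± 0.36 (SE) and -1.02 ± 0.29, with edgeR adjusted p-values of 0.0780 and 0.0876. The summed level of this list was 2720, 2114, 1900 and 1332 FPM in mice WT-SFD-1309, WT-SFD-1310, KO-SFD-1319 and KO-SFD-1452 and 773 to 891 FPM in the other aortae, the same 4 libraries as for the copies.

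The genes that transcribe and maintain mitochondrial DNA, such as the RNA polymerase Polrmt and the packaging factor Tfam, spread less. In WT aortae 14 of the 21 tested were below 0, with a median log2 fold change of -0.19 for HFD against SFD, 5 at an unadjusted p under 0.05 and 0 called by edgeR or DESeq2. Lonp1, the protease of the matrix, had -0.56 ± 0.20 (SE) and Polg, the DNA polymerase of mitochondria, -0.18 ± 0.15. Of the 30 tested genes for processing, stability and translation of mitochondrial RNA, 25 were below 0, with a median of -0.33, 11 at an unadjusted p under 0.05, 0 called by edgeR and 4 by DESeq2. Lrpprc, which stabilises mitochondrial mRNAs, had -0.63 ± 0.16 (SE) with an edgeR adjusted p of 0.0780, and Fastk -0.34 ± 0.16. Of the 9 tested regulators of mitochondrial biogenesis, 7 were below 0, with a median of -1.09, 6 at an unadjusted p under 0.05, 0 called by edgeR and 3 by DESeq2, with values of -0.21 ± 0.13 for Gabpa and 0.40 ± 0.13 for Pprc1. In KO aortae these lists had medians of -0.08, -0.16 and -0.43, with 1, 2 and 3 genes at an unadjusted p under 0.05 and 0 called by edgeR or DESeq2. Over all 14796 genes, 2464 had an unadjusted p under 0.05 in the WT and 1106 in the KO diet comparison of the aorta, and DESeq2 called 666 and 8.

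In the kidney the share of the 10 copies varied little. It was 6.87%, 5.56%, 6.92% and 5.99% in WT-SFD-1309, WT-SFD-1446, WT-SFD-1694 and WT-SFD-1695 and 6.52%, 5.64%, 6.25% and 6.25% in WT-HFD-1535, WT-HFD-1613, WT-HFD-1641 and WT-HFD-1642. In KO mice it was 6.80%, 5.92%, 6.67% and 6.12% on SFD (mice KO-SFD-1303, KO-SFD-1318, KO-SFD-1319 and KO-SFD-1451) and 6.10%, 6.42%, 5.23% and 5.88% on HFD (mice KO-HFD-1437, KO-HFD-1504, KO-HFD-1520 and KO-HFD-1558). All 4 groups overlapped. The means were 6.34% ± 0.674 and 6.17% ± 0.374 in WT (SD, n = 4) and 6.38% ± 0.426 and 5.91% ± 0.501 in KO, on SFD and HFD. The ratios of the means were 0.973 for HFD against SFD in WT, 0.926 in KO, 1.01 for KO against WT on SFD and 0.958 on HFD, each within the spread between the mice of a group. The highest kidney had 1.32 times the share of the lowest, and the highest aorta 4.79 times that of the lowest. Small and structural RNA genes took 0.0425% to 0.126% of the kidney counts.

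The 3 mice with a library of both tissues had aortae with high and low shares. Mouse WT-SFD-1309 had a share of 8.88% in the aorta and 6.87% in the kidney, mouse KO-SFD-1319 8.19% and 6.67%, and mouse KO-HFD-1504 2.91% and 6.42%. The kidneys of the 3 mice thus lay close together while their aortae did not.

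For HFD against SFD in KO kidneys, 0 of 10 members had an edgeR adjusted p under 0.05, against 2.3% of the 15034 genes tested. Gm29216 had 12182, 16657, 12792 and 13151 FPM in KO-SFD and 10985, 10734, 11457 and 11012 FPM in KO-HFD kidneys, the groups lying apart. Its log2 fold change was -0.31 ± 0.13 (SE), with an edgeR p of 0.0269 before and 0.247 after adjustment, and it was the only member at an unadjusted p under 0.05, against 7.14% of all genes in this direction. DESeq2 called Gm29216 and no other member, with an adjusted p of 0.0476, against 1.82% of all genes lower. Without mouse KO-SFD-1318, the highest value, the lowest log2 fold change of any member was -0.20.

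Gm28661 and Gm28437 also had every KO-HFD kidney below every KO-SFD kidney, so that 3 members were apart in this direction, against 3.85% of all genes tested. Gm28661 had 13488, 14482, 14900 and 13710 FPM on SFD and 11866, 12754, 12742 and 13468 FPM on HFD. Gm28437 had 10662, 12722, 10810 and 10606 FPM on SFD and 9486, 10178, 10144 and 10240 FPM on HFD. Their log2 fold changes were -0.15 ± 0.11 and -0.16 ± 0.11 (SE), with edgeR adjusted p-values of 0.516 and 0.506.

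The remaining kidney comparisons gave 0 members with an edgeR adjusted p under 0.05, 0 at an unadjusted p under 0.05 and 0 called by DESeq2. Over all 15034 genes, 1188 had an unadjusted p under 0.05 for diet in WT and 486 for the difference of the diet effects. For KO against WT there were 1258 such genes on SFD and 248 on HFD. DESeq2 called 263, 1, 26 and 1 of all genes in the same order. In the WT diet comparison, where edgeR called 0.911% of all genes, the members' log2 fold changes ran from -0.33 in Gm13341 to 0.02 (median -0.03). For KO against WT they ran from -0.39 in Gm10222 to 0.16 on SFD (0.0133% of all genes called) and from -0.13 to 0.38 in Gm13341 on HFD (0.00665% called). Without KO-SFD-1318 the SFD values ran from -0.20 to 0.05, and without WT-SFD-1446 from -0.56 to 0.17. Without WT-HFD-1613 the lowest value of the WT diet comparison was -0.16 and the highest for KO against WT on HFD was 0.21. Without WT-HFD-1642 these were -0.46 and 0.50. The difference of the diet effects ran from -0.25 to 0.53 (0% of all genes called). SEs over these comparisons were 0.11 to 0.41. None of the 4 lists of nuclear genes that work with mitochondria had a gene called by edgeR in a kidney diet comparison, with 2 genes over the 4 lists having an unadjusted p under 0.05 in WT, against 1188 of all 15034 genes, and 6 in KO, against 2382. DESeq2 called 1 gene of these lists, a regulator of biogenesis in KO, against 695 of all genes there. Atp5b had 4034 ± 359 FPM (SD, n = 16) over all kidneys, and the summed level of the respiratory chain partners was 11101 to 16129 FPM.

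Per length, the order of the copies in the kidney differed from that in the aorta. Gm29216 led with a median of 24265 FPM per kb over the 16 libraries (range 21283 to 33855), before Gm28661 with 19935, Gm10925 with 17194 and Gm28437 with 13261. The next were Gm28439 with 4931, Gm13340 with 4835, Gm28438 with 4350 and Gm10222 with 3906 FPM per kb. Gm13340 lay above Gm28438 in 8 of 16 libraries, so these were not separated, whereas Gm28437 lay above Gm28439 in 16 of 16. Gm13339 with 830.0 and Gm13341 with 178 FPM per kb were the lowest. The chromosome 2 insertion, to which these and Gm13340 belong, took 7.38% to 13.9% of the members' counts in the kidney and 27.0% to 32.9% in the aorta.

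Ratios of counts between copies within a library do not depend on its depth or scaling. The ratio of Gm13340 to Gm29216, both of mt-Co1 sequence, was 1.72 to 2.24 in the aortae (median 2.03) and 0.244 to 0.760 in the kidneys (median 0.614), with no overlap between the tissues. The ratio of Gm28439 (mt-Nd4) to Gm28661 (mt-Co2) was 0.867 to 1.11 in the aortae and 0.144 to 0.384 in the kidneys, that of Gm10222 (mt-Nd4l) to Gm28661 0.176 to 0.243 and 0.0254 to 0.116, and neither overlapped. The ratio of Gm28437 (mt-Co3) to Gm10925 (mt-Atp6) was lower in the aortae, 0.449 to 0.684, than in the kidneys, 0.850 to 1.24. Gm28661 had 34.3 to 57.8 times the counts of Gm13341, the other mt-Co2 copy, in the aortae and 96.9 to 209 times in the kidneys. Site, library preparation and tissue cannot be told apart in these ratios.

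**Figure D5:**
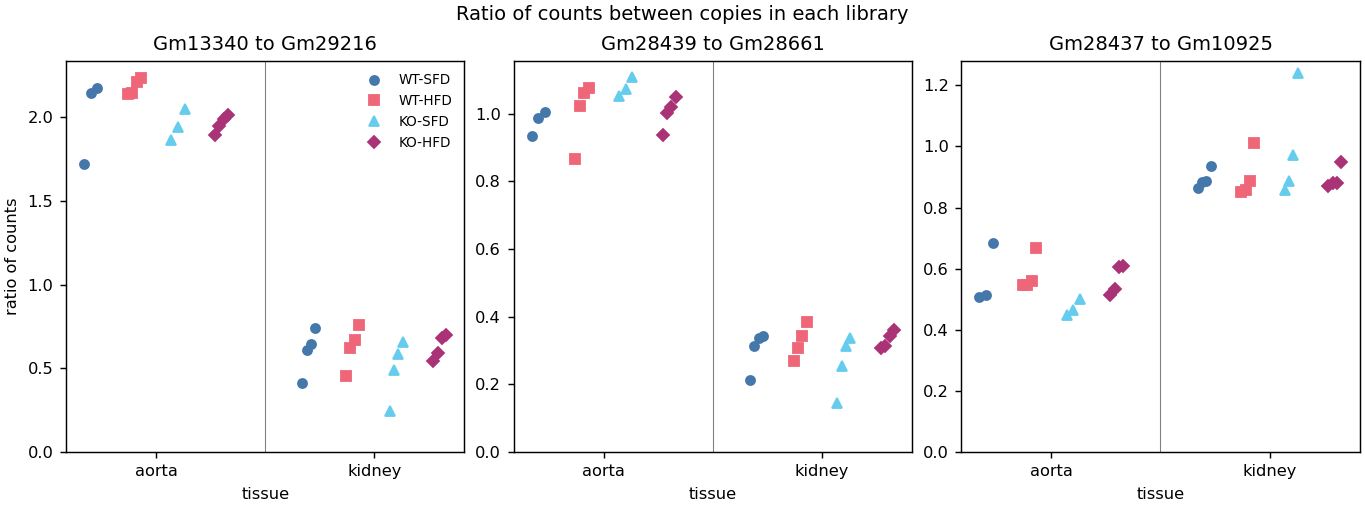
Ratio of counts between pairs of copies in each library (y axis, from 0), aorta and kidney on the x axis, with 1 point per library coloured by group. The aortae and kidneys form separate ranges in all 3 pairs, 1.72 to 2.24 against 0.244 to 0.760 for Gm13340 to Gm29216, and 1 KO-SFD kidney (mouse KO-SFD-1318) has the lowest value of the first and second pair and the highest of the third.

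Mouse KO-SFD-1318 had a ratio of Gm13340 to Gm29216 of 0.244 and mouse WT-SFD-1446 one of 0.412, followed by mouse WT-HFD-1613 with 0.452. In mouse KO-SFD-1318 Gm10222 had 368 FPM, Gm28439 2079 FPM and Gm13340 4071 FPM, the lowest of all 16 kidneys, while Gm29216 with 16657 and Gm28437 with 12722 FPM were the highest. In the other 15 kidneys Gm10222 had 714 to 1484 FPM and Gm28439 2890 to 5014 FPM. Without mice WT-SFD-1446 and KO-SFD-1318, 0 members were called in any kidney comparison.

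Of the matching genes that are not members, Gm4076, a protein-coding gene with mt-Nd5 sequence (chr13:85126550-85127514, 95.2% identity), had the most counts. It had 1425 to 6188 counts in the aortae and 0 to 8 in the kidneys. Gm11408 (mt-Nd6, chr4:80003396-80003914) had 1098 to 4349 and 0 to 5 counts, and Gm11407 (mt-Nd5, chr4:80002331-80003388) had 385 to 1989 and 0. Those genes with mt-Nd5 and mt-Nd6 sequence thus had counts in the aortae and next to none in the kidneys, which had the deeper libraries.

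Among the genes whose log2 level was most like the summed copies over the 14 aortae were Gm4076 (Pearson's r = 0.991), Idh3b (0.987), a subunit of isocitrate dehydrogenase in the citric acid cycle, Atp5c1 (0.986), the central stalk of the ATP synthase, and Acly (0.984), which makes acetyl-CoA for fatty acid synthesis. The 4 aortae with a high share lie apart from the other points, and all values of a point share the scaling of their library. Over the 16 kidneys the nearest were Tmem161b (0.841), Ankrd33b (0.822), X4930589L23Rik (0.813), Crip3 (0.805) and Nfyb (0.805), each chosen as the highest of all genes tested and given without a test.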

How the data were processed

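The authors isolated total RNA, removed genomic DNA and ribosomal RNA, sequenced it paired-end, trimmed the reads with cutadapt, aligned them with TopHat to mm10 (GRCm38) and obtained a count per gene from featureCounts. The values used are the counts as the authors deposited them, not normalised, 1 column per mouse, with 0 columns left out. The authors annotated the genes with BiomaRt. The annotation that featureCounts counted against, the strand setting and the treatment of multi-mapping reads are not given in the sources used here. The study names 4 animals for each aorta group; the SFD aortae used here were 3 of either genotype.

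The members were found by identifier, 4 listed under their symbol and 6 under a clone name. GENCODE vM21 (40254 of 41128 identifiers matched) gave positions and transcripts, and blastn 2.17.0 compared all transcripts with the mitochondrial ones at an e value limit of 1e-10. FPM are counts scaled with TMM factors from edgeR. Genes were filtered with filterByExpr, leaving 14796 aorta and 15034 kidney genes, with all 10 members. Each tissue had 1 fit over its 4 groups, made with edgeR 4.0.16 (glmQLFit and glmQLFTest, common dispersion 0.0531 and 0.0372) in R 4.3.3, with Benjamini-Hochberg adjustment over all genes tested, and a member was called at an adjusted p under 0.05. SE is the log2 fold change divided by the square root of F. Log2 CPM had a prior count of 2. The script was tested on simulated data. Python 3.11.15 with pandas 2.3.3, scipy 1.17.1 and matplotlib 3.10.9 gave shares, intervals and figures.

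The members and gene lists were chosen with earlier results of these data known. The lists were mitochondrial DNA transcription and maintenance, mitochondrial RNA processing, stability and translation, biogenesis regulators, nuclear respiratory chain partners, and markers of adipocytes, brown adipocytes, smooth, skeletal and cardiac muscle, blood, proximal tubule, distal nephron and podocytes. From each list the rule for named genes took up to 4 called genes per comparison by smallest p or, where a tissue had none, the 2 with the highest mean count. It also names the 5 genes per tissue most like the summed copies (1 of those in the aorta is not reported here) and the 3 other matching genes with most counts. The alternatives were RLE factors, library totals, no low count filter, small and structural RNA genes left out, DESeq2 1.42.0, the adipocyte mean as covariate (aorta), fits restricted to the groups compared, the study's adjusted p limit of 0.001 and each library left out in turn, and for the summed share the TMM library size, a total without small and structural RNA genes, medians in place of means, and the sum without the member with the most counts. Leaving out mice WT-SFD-1309, WT-SFD-1310 and KO-SFD-1319 (aorta) and mice WT-SFD-1446 and KO-SFD-1318 (kidney) together was added after seeing the data.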

Additional observations from a re-analysis of the deposited data

Results flagged for a closer look

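Of 108 groups of 4 libraries checked with Dixon's test, 5 held a value far from the others of its group, and chance alone gives about 1 in 20. Gm13341 had 128.23 FPM in the aorta of KO-HFD-1504, and the nearest of its group had 81.0 FPM. Gm28437 had 12721.6 FPM in the kidney of KO-SFD-1318, against 10810.4 FPM in the nearest of its group. Gm28437 had 9486.04 FPM in the kidney of KO-HFD-1437, below the next value of 10144.2 FPM. The ratio of Gm28437 to Gm10925 counts was 0.668 in the aorta of WT-HFD-1448, the nearest being 0.558, and in that library small and structural RNA genes took 43.1% of the counts, the most of all aortae. The same ratio was 0.95 in the kidney of KO-HFD-1520, the nearest being 0.881. The WT-SFD and KO-SFD aortae, with 3 libraries each, were not checked in this way.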

How the results depend on the processing

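The number of members called stayed at 0 under 168 of 173 alternatives, 10 of which used a stricter limit that could call none, and the ratio of the summed share moved by less than its spread under 96 of 98. That spread, carried over from the group SDs, was wide in the aorta. It was 0.215 for the ratio of 0.362 (HFD against SFD in WT) and 0.659 for that of 0.914 (KO against WT on SFD). Staying within it therefore says little for the aorta. For HFD against SFD in WT aortae, where 0 members were called, 5 were called lower with library totals in place of TMM (1.45% of all genes), 10 without the low count filter (1.88%) and 10 with DESeq2 (3.86%), and 0 to 10 when 1 library was left out, the 10 being without mouse WT-SFD-1445 (8.52%). In KO kidneys DESeq2 called 1 member lower for HFD against SFD (1.82% of all genes). Without mice WT-SFD-1309, WT-SFD-1310 and KO-SFD-1319 the ratio of the summed share was 1.07 for HFD against SFD in WT aortae and 2.09 for KO against WT on SFD, where 1 WT-SFD library remained; that library was assumed to vary like the other groups. Of 1630 log2 fold changes of single members under an alternative, 1473 kept their direction and side of the threshold, 36 passed it in the same direction and 121 changed sign without being called in either, and 0 reversed a call. The cause of these changes was not tested.

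No paired analysis was possible because the groups of a tissue share no mouse numbers, and the tissues were not tested against each other. With 3 or 4 libraries per group, the spread between mice limits the aorta comparisons: SEs were 0.34 to 0.47 between 2 groups and 0.52 to 0.62 for the difference of diet effects, against 0.11 to 0.29 and 0.15 to 0.41 in the kidney. Each member had at least 475 counts in every aorta and 1205 in every kidney.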

Other observations

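The marker lists of cell types gave the following medians in the aorta. In WT aortae the median log2 fold change for HFD against SFD was -3.61 over 10 adipocyte markers and -3.70 over 7 brown adipocyte markers, with 9 and 6 genes at an unadjusted p under 0.05 and 0 called by edgeR, while DESeq2 called 9 and 5. Over all 14796 genes, 2464 had an unadjusted p under 0.05 in WT, edgeR called 0 and DESeq2 666. Of the 7 brown adipocyte markers 1, Prdm16, was higher on HFD, and it was among the 6 at an unadjusted p under 0.05. In KO aortae the medians were -3.39 and -2.92, with 9 and 5 genes at an unadjusted p under 0.05, 0 called by edgeR, and 1 and 0 by DESeq2. The counts over all genes in KO were 1106 at an unadjusted p under 0.05, 0 called by edgeR and 8 by DESeq2. In WT the median was 0.36 over 4 smooth muscle markers, -0.73 over 2 skeletal muscle markers, -2.18 over 3 cardiac muscle markers, 1.24 over 4 blood markers, 1.18 over 2 proximal tubule markers and -0.03 over 2 podocyte markers, all with 0 genes called by edgeR, and 2, 0, 3, 0, 1 and 0 genes at an unadjusted p under 0.05. In KO aortae the same 6 lists had medians of 0.24, -0.54, -0.45, 1.03, -0.31 and 0.06, with 0 genes at an unadjusted p under 0.05. Of the distal nephron markers none was tested in the aorta. The proximal tubule markers summed to 1.77 to 9.38 FPM in the aortae.

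In the kidney diet comparisons edgeR called 1 of 8 proximal tubule markers in WT and 2 of 8 in KO mice, 0 and 2 of 8 markers of the loop, distal tubule and collecting duct, and 0 and 2 of 10 adipocyte markers. The share called over all genes tested was 0.911% in WT and 2.3% in KO kidneys. Of the proximal tubule markers 3 had log2 fold changes above 0 and 5 below in WT (median -0.07), and 7 above and 1 below in KO (median 0.19). Of the loop, distal and collecting duct markers 2 were above and 6 below in WT (median -0.20), and 3 above and 5 below in KO (median -0.13). Of the adipocyte markers 1 was above and 9 below in either genotype, with medians of -0.57 and -0.99, and Lep was the 1 above. Podocyte markers were not called in either, with medians of 0.05 and 0.47, 0 and 4 of 4 at an unadjusted p under 0.05, and 0 called by DESeq2. Slc5a2, the glucose transporter SGLT2 of the proximal tubule, rose on HFD by 1.20 ± 0.21 (log2, SE) in WT and by 1.54 ± 0.21 in KO kidneys, with edgeR adjusted p-values of 0.00568 and 0.000625. In KO kidneys Slc5a12, a lactate transporter, rose by 1.13 ± 0.26, Slc12a3, the thiazide-sensitive NaCl transporter, by 0.71 ± 0.14 and Pvalb of the distal tubule by 1.57 ± 0.25, with adjusted p-values of 0.0266, 0.0127 and 0.00226. Lep, the fat cell hormone leptin, rose by 4.97 ± 0.96, and Lpl fell by 1.07 ± 0.27 on the log2 scale, with adjusted p-values of 0.00902 and 0.0434. In WT kidneys edgeR called Slc5a2 and none of these other genes, whose log2 fold changes there were 0.74 for Slc5a12, 0.10 for Slc12a3, 0.88 for Pvalb, 3.02 for Lep and -1.07 for Lpl, the last as large as in KO. In WT kidneys DESeq2 called 1 of 10 adipocyte, 1 of 3 skeletal muscle, 1 of 8 proximal tubule and 2 of 8 distal markers, against 263 of all 15034 genes. In KO kidneys it called 3, 1, 2 and 3 genes of these lists, against 695 of all genes. Pvalb stands in both the skeletal muscle and the distal list. EdgeR called the difference between the genotypes for none of the genes named here.

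The other list genes of high mean count had an edgeR adjusted p above 0.05 in every diet comparison, and their log2 fold changes for HFD against SFD are given for WT and KO in turn. In the aorta these were 0.50 and 0.24 for Acta2, 0.25 and 0.13 for Myh11, -0.71 and -0.55 for Tnnt3, -0.75 and -0.52 for Ckm, -4.89 and -1.56 for Myh6, and -1.47 and -0.45 for Tnnt2. They were 0.96 and 0.90 for Hbb-bt, 1.35 and 1.18 for Hba-a1, 0.28 and -1.25 for Cubn, 2.09 and 0.63 for Slc5a2, 0.28 and 0.23 for Synpo, and -0.33 and -0.11 for Podxl. In the kidney the genes of mitochondrial function had -0.06 and -0.07 (Lonp1), -0.13 and -0.12 (Polrmt), -0.05 and -0.05 (Fastk), 0.01 and -0.02 (Grsf1), -0.07 and -0.02 (Esrra), -0.01 and -0.18 (Ppargc1a), 0.00 and -0.07 (Atp5b), and 0.00 and -0.02 (Atp5a1). The kidney markers had 0.13 and -0.23 (Cox7a1), -0.21 and -0.29 (Prdm16), -0.09 and -0.30 (Smtn), -0.03 and -0.29 (Acta2), -0.68 and -0.27 (Myl7), 0.45 and -0.02 (Myh6), 0.24 and 0.40 (Hba-a1), 0.24 and 0.45 (Hbb-bt), 0.11 and 0.35 (Podxl), and 0.00 and 0.47 (Synpo).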
